A study of Mus musculus with 384 samples.

Results

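The transcripts of 10 Toll-like receptor genes were followed in mouse bone-marrow-derived macrophages exposed to innate immune ligands. The genes, Tlr1, Tlr2, Tlr3, Tlr4, Tlr5, Tlr6, Tlr7, Tlr8, Tlr9 and Tlr13, were taken by symbol from a count table of 23481 genes. No filter on measured values was applied, but the choice was made with earlier results of these data known. The macrophages were grown from marrow of male C57BL/6 mice 13 weeks old, either wild type (WT) or with Myd88 knocked out (KO). Cells of both genotypes were transduced on day 4 with a pool of pathway reporter viruses and replated on day 9 in 96-well plates, so every group carries these viruses. Each genotype filled 2 plates, called replicates 1 and 2, with 1 well per plate for each of 12 ligands and 8 times (0, 0.5, 1, 1.5, 2, 2.5, 3 and 4 h). The ligands are labelled Pam3Cys, Zymosan, LPS, MDP/LPS, FLA, R848, CpG, Poly(I:C), SeV, HT-DNA, TDB and MDP. The labels do not name the Myd88 allele or the number of mice, and genotype and plate cannot be told apart. The p-values measure the spread between the 2 plate sums of a group, estimated jointly over all 74 groups. This spread may be technical. Each plate gave sums to many groups, and the fit took these sums as independent.

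Toll-like receptors are membrane proteins that bind microbial molecules and start inflammatory transcription. Tlr1, Tlr2, Tlr4, Tlr5 and Tlr6 sit mainly at the cell surface and bind lipopeptides, cell wall components, LPS or flagellin, while Tlr3, Tlr7, Tlr8, Tlr9 and Tlr13 sit in endosomes and bind nucleic acids. All of them except Tlr3 signal through the adaptor Myd88, which activates NF-kB. Tlr3 signals through the adaptor Ticam1 (TRIF), which also drives interferon genes, and Tlr4 uses both adaptors. Tlr2 pairs with Tlr1 for triacylated lipopeptides such as Pam3Cys and with Tlr6 for other microbial products, and macrophages rely on Tlr2 and Tlr4 to sense bacteria. For the comparisons of a receptor with its ligand, Tlr1 and Tlr2 were set beside Pam3Cys, Tlr2 and Tlr6 beside Zymosan, Tlr3 beside Poly(I:C), and Tlr4 beside LPS and MDP/LPS. Tlr7 was set beside R848, Tlr9 beside CpG, and Tlr5 beside FLA on the reading that this label stands for flagellin. SeV, HT-DNA, TDB and MDP had no receptor among the 10 genes.

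Sequence around the start is shown for the 2 receptor genes whose upstream window held an NF-kB motif, because Tlr2 is the receptor that rose most widely below and Tlr3 is the receptor of Poly(I:C). The windows were the 250 bases before each RefSeq start on GRCm38.p6. Both genes are read from the minus strand, 5′ to 3′, with the motif in capitals. For Tlr2 the stretch at chr3:83841768-83841858 is printed, which lies before the first base of the GENCODE gene model. For Tlr3 the 30 bases at chr8:45410572-45410601 are printed, which lie inside the span of the GENCODE gene model and of the antisense gene Gm45542.
Tlr2: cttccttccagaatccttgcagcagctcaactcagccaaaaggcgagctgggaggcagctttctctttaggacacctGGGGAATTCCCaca
Tlr3: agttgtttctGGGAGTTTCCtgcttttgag

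The capitals in Tlr2 hold a pair of overlapping matches, 173 to 163 bases before the RefSeq start, and the match in Tlr3 lies 211 to 202 bases before it. Windows were found for 8 of the 10 genes, 10 windows in all, and both strands were searched. Tlr4 and Tlr7 had no window, so they were not searched. The NF-kB motif, read as GGG, A or G, any 2 bases, 2 bases of C or T, and CC, was in 2 of the 10 receptor windows. It was in 7.25% of all 32851 windows. Tlr1, which also had calls below, held no NF-kB match, and Tlr3 was called in no single comparison with a ligand. An interferon-response element, read as GAAA, any 2 bases and GAAA, was in the window of Tlr6 and in 2.98% of all windows. A STAT motif, TTCNNNGAA, was in the windows of Tlr1 and Tlr8 and in 7.02% of all windows. A match describes the letters and is not a shown binding site.

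By the GENCODE annotation of the same build, Tlr1 (chr5:64924679-64933563) and Tlr6 (chr5:64952031-64960097) lie close together on the minus strand. Their coding sequences are close relatives, and how the authors counted reads that match both is not given in the sources used here. Tlr7 (chrX:167304929-167330558) and Tlr8 (chrX:167242696-167264329) lie close together as well. Tlr3 overlaps an antisense gene, Gm45542, which is not a row of the count table.

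The cells carried macrophage RNA. At time 0 the 7 macrophage markers in the table (of 8 listed, Csf1r and Lyz2 the highest) summed to 3116 to 3515 CPM (counts per 1000000 counts) over the 4 plates. Neutrophil markers summed to 117.6 to 191.4 CPM with Elane and Mpo at 0, and markers of B cells, T cells, plasmacytoid and conventional dendritic cells, mast cells and fibroblasts summed to 9.9 CPM or less each. In late wells macrophage markers summed to 2896 and 2946 CPM in WT, against 3515 and 3388 CPM at time 0, and to 3044 and 2948 CPM in KO. Conventional dendritic cell markers summed to 16.1 and 14.3 CPM in late WT wells, against 7.55 and 6.0 CPM at time 0, with Flt3 at 0 in both, and to 8.61 and 7.98 CPM in late KO wells. The part of these shifts in the late receptor changes was not tested. In bulk RNA, fewer cells of a type and less RNA per cell cannot be told apart. Plates held 29737092 to 37323548 counts and single wells 71720 to 767167, with a median of 342561. The 8 R848 wells of KO replicate 2 were all shallow, under 150000 counts, and the R848 results that rest on them are given with and without them. Myd88 read 30.4 and 35.0 CPM at time 0 in WT and 14.5 and 17.0 CPM in KO, with KO below WT by -1.08 on the log2 scale (SE 0.63, adjusted p = 1.0). The libraries count transcript 3′ ends and the deleted part of Myd88 is not given, so KO counts of Myd88 do not check the genotype, and Myd88 also overlaps Acaa1a and Slc22a14.

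Resting macrophages held very unequal amounts of the receptor transcripts. Levels here are CPM at time 0, over the 12 wells of each plate. The libraries count 3′ ends, so CPM was not divided by length, and the order also depends on how well each 3′ end was captured. Tlr13, the endosomal receptor of bacterial ribosomal RNA, read 159.8 and 120.9 CPM in the 2 WT plates and 159.8 and 162.7 CPM in the 2 KO plates. It was the highest of the 10 genes in each plate.

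A middle group followed. Tlr2 read 67.5 and 78.3 CPM in WT, and 42.4 and 35.3 CPM in KO. Tlr7, the endosomal receptor of single-stranded RNA, read 77.5 and 62.5 CPM in WT and 86.3 and 72.3 CPM in KO. Tlr4, the LPS receptor, read 58.2 and 58.1 CPM in WT and 57.3 and 73.9 CPM in KO. The plates of Tlr2 and Tlr7 overlapped in WT, and those of Tlr7 and Tlr4 in KO. In KO, Tlr2 came after Tlr4, with no overlap of their plates.

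The remaining receptors were lower. Tlr1 read 28.4 and 30.6 CPM in WT and 28.6 and 30.5 CPM in KO. Tlr8, an endosomal RNA receptor close to Tlr7, read 23.7 and 24.3 CPM in WT and 11.1 and 17.8 CPM in KO. Tlr3 read 5.31 and 8.21 CPM in WT and 7.03 and 6.35 CPM in KO. Tlr6 read 3.88 and 4.42 CPM in WT and 2.13 and 3.3 CPM in KO. Each of these neighbours in the order was separated by plates that did not overlap, in both genotypes.

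Tlr9, the receptor of CpG DNA, and Tlr5, the flagellin receptor, were close to the counting limit. Tlr9 had 9 counts in WT replicate 1 and 0 in replicate 2, or 1.11 CPM over both plates with an exact 95% Poisson interval of 0.51 to 2.12 CPM. In KO it had 1 and 10 counts, and the 10 counts stood in a single well. Tlr5 had 7 and 0 counts in WT, 0.868 CPM with an interval of 0.349 to 1.79 CPM. In KO it had 13 and 4 counts. A count of 0 over the time 0 wells of WT would have allowed up to 0.372 CPM, taking 3 counts as the limit. These intervals and limits cover counting error only. The order of Tlr9 and Tlr5 was not resolved, since their plates overlapped in both genotypes.

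**Figure D1:**
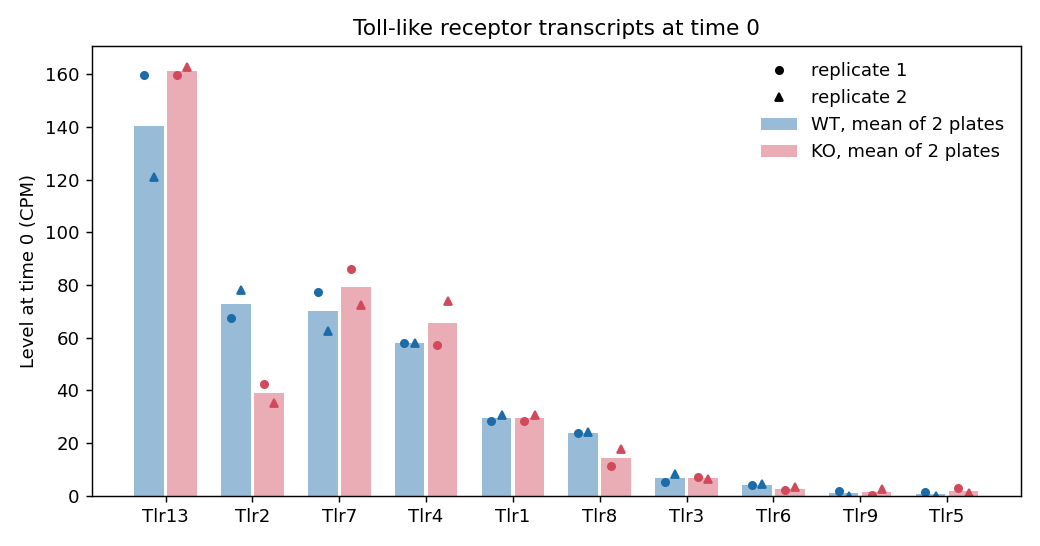
Bars show the mean level at time 0 in CPM of each receptor gene, WT in blue and KO in red, over 2 plates. Circles are replicate 1 and triangles replicate 2. Tlr13 is the highest in both genotypes, and Tlr2 lies at 67.5 and 78.3 CPM in WT against 42.4 and 35.3 CPM in KO.

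No receptor gene was called different between genotypes at time 0. Of the 8 genes that passed the filter on low counts, 0 had an edgeR adjusted p under 0.05, 1 had an unadjusted p under 0.05, and DESeq2 also called 0. Of all 10562 genes tested, 0.275% were called. Tlr2 was the 1, lower in KO by a log2 difference of -0.93 (SE 0.35, adjusted p = 0.899). Both KO plates lay below both WT plates for Tlr2, and also for Tlr8 and Tlr6. The share of all genes that lay so was not computed. When the 24 time 0 wells of each genotype were taken as replicates in place of plate sums, Tlr2 was called, but wells of a plate share their cells. Tlr5 and Tlr9 did not pass the filter here. They were tested in the fit without it and in some alternatives that left out wells or plates, and were called in none of these.

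Resting receptor level and the response to the ligand did not line up in a simple order. The response was read from 20 NF-kB target genes and 20 interferon-stimulated genes, each late group (2.5, 3 and 4 h) against time 0. These lists were chosen with earlier results of these data known, and several receptors share a ligand, so the points are not independent. CpG stood beside Tlr9, at a mean of 0.918 CPM in WT, yet 15 of the 20 NF-kB genes rose with it in WT, with a median log2 change of 2.18. FLA stood beside Tlr5, at a mean of 0.714 CPM, and 4 of 20 rose, with a median of 0.89. The median over all genes tested lay between -0.13 and -0.01 for each ligand set beside a receptor, in both genotypes. So of the pair of receptors with nearly no counts, one ligand gave a wide NF-kB response and the other a narrow one. Of all genes tested in WT, 1.53% rose with CpG and 0.492% with FLA.

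The middle group of receptors, Tlr2, Tlr7 and Tlr4, stood beside wide responses in WT. With Pam3Cys, beside Tlr2 (72.9 CPM) and Tlr1 (29.5 CPM), 13 of 20 NF-kB genes rose, with a median log2 change of 1.90, against 1.92% of all genes. With R848, beside Tlr7 (70.0 CPM), 16 rose, with a median of 1.96, against 1.85% of all genes. With LPS and MDP/LPS, beside Tlr4 (58.1 CPM), 19 rose in each case, with medians of 2.29 and 2.43, against 4.55% and 4.51% of all genes. Zymosan, beside Tlr2 and Tlr6 (4.15 CPM), raised 19 with a median of 2.35, against 3.61% of all genes. Poly(I:C), beside Tlr3 at 6.76 CPM, raised 11 NF-kB genes with a median of 1.33 and 18 of the 20 interferon genes with a median of 3.45, against 3.88% of all genes. Interferon genes rose with other ligands too: 17 with LPS (median 2.69), 17 with MDP/LPS (2.65) and 14 with Zymosan (1.97). With Pam3Cys, R848 and CpG 1 interferon gene rose each, and with FLA 0.

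The KO responses started from a lower NF-kB baseline. At time 0, 12 of the 20 NF-kB genes were called lower in KO, with a median log2 difference of -1.91 beside 0.02 over all genes, and the 29 genes called at time 0 were all lower in KO. Changes in KO are measured from this level. With Pam3Cys, FLA, R848 and CpG, 0 of the 20 NF-kB genes rose, and 0.00947%, 0.00947%, 0.0189% and 0.00947% of all genes did. The medians of the NF-kB genes were -0.15, 0.06, 0.34 and -0.16, and without the shallow wells the R848 count stayed 0 with a median of 0.06. With Zymosan 12 rose, with LPS 13, with MDP/LPS 17 and with Poly(I:C) 15, against 3.34%, 3.26%, 3.38% and 4.86% of all genes. Of the 20 interferon genes, 18 rose in KO with each of these ligands, and 0 with Pam3Cys, FLA, R848 and CpG. In tests of the difference between genotypes, 10 of 20 NF-kB genes were called lower in KO for CpG (0.464% of all genes), 9 for Pam3Cys (0.483%), 6 for R848 (0.464%) and 2 for FLA (0.0757%). With Zymosan and LPS, where fewer NF-kB genes rose in KO than in WT, 0 had a called difference, against 0.0189% of all genes in each case. Nfkbia, an NF-kB target whose protein restrains NF-kB, rose by a log2 change of 3.26 (SE 0.25) with CpG in WT and read 0.20 (SE 0.23) in KO. The difference was -3.06 (SE 0.34, edgeR adjusted p = 1.61e-11). Cxcl10, an interferon-induced chemokine, rose with Poly(I:C) by 4.33 (SE 0.55) in WT and 5.03 (SE 0.57) in KO, and the difference of 0.70 (SE 0.68) had an adjusted p of 1.0.

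**Figure D2:**
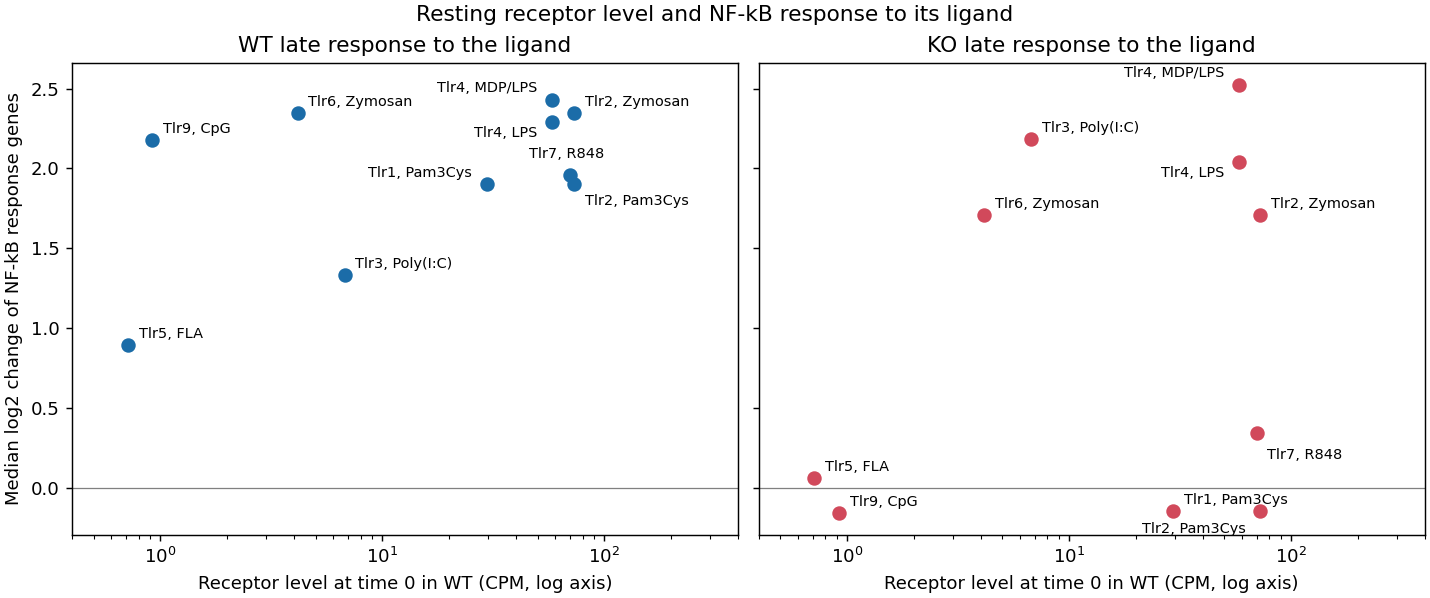
Each point is a receptor set beside its ligand: the x axis is the receptor's mean level at time 0 in WT in CPM on a log axis, and the y axis is the median log2 change of 20 NF-kB genes in late wells, WT left and KO right. Tlr9 with CpG sits at 0.918 CPM and 2.18 in WT, and at -0.16 in KO.

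Ligands changed the receptor transcripts themselves, and Tlr2 led. In late wells of WT, 20 of 96 tests (8 genes and 12 ligands) were called, 15 higher and 5 lower, against 2.09% of all tests called higher and 0.686% called lower. In KO 11 of 96 were called, 9 higher and 2 lower, against 1.58% and 0.593%. The higher calls were of Tlr2 and Tlr1 alone, and the lower ones of Tlr4 and Tlr13 alone. The late WT calls needed both plates: 1 of the 20 was still called without WT replicate 1 and 5 without WT replicate 2, when the lone plate is assumed to vary like the others. Early wells (0.5 and 1 h) gave 0 of 96 calls in WT (3 with an unadjusted p under 0.05, DESeq2 0), against 0.276% of all tests. Early wells of KO gave 2, both higher and both Tlr2, against 0.164%. Middle wells (1.5 and 2 h) gave 8 in WT, all of them Tlr2 and higher, against 0.806%. In KO they gave 9: 7 higher, all Tlr2, against 0.6%, and 2 lower, both Tlr4, against 0.211%. A test over all times and ligands at once called Tlr1, Tlr2, Tlr4 and Tlr13 in WT and these with Tlr3 in KO, where 13.1% and 18.9% of all genes were called. Of the 51 calls over the 3 time classes, 13 held under each alternative tried, all of them Tlr2 and 12 of them in KO, and no call of Tlr1, Tlr4 or Tlr13 held under all.

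**Figure D3:**
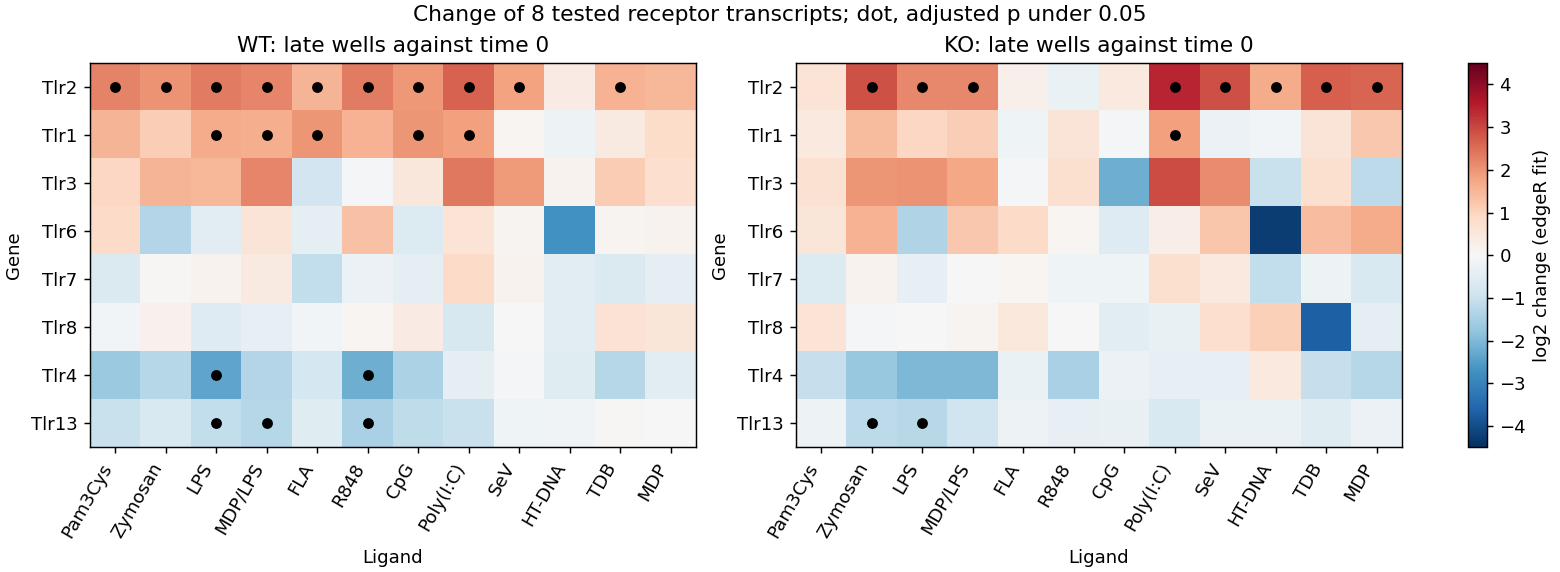
Colours give the log2 change of 8 receptor genes in late wells against time 0 for 12 ligands, WT left and KO right, and a dot marks an adjusted p under 0.05. Tlr2 is marked for 10 ligands in WT and 8 in KO; the darkest blue squares of Tlr6 and Tlr8 rest on sums with 0 to 2 counts and are not marked.

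Tlr2 rose with 10 of the 12 ligands in late WT wells. Its largest late change was with Poly(I:C), from 67.5 and 78.3 CPM at time 0 to 391.6 and 406.8 CPM, a log2 change of 2.65 (SE 0.36, adjusted p = 6.09e-09). With R848 it read 354.6 and 307.8 CPM, a change of 2.32 (SE 0.36). With LPS it read 305.4 and 281.6 CPM, a change of 2.33 (SE 0.36). Its own ligands were near the middle of this range. Pam3Cys gave 344.2 and 291.5 CPM, a change of 2.21 (SE 0.36), and Zymosan gave 309.2 and 191.1 CPM, a change of 2.03 (SE 0.36). The lowest called change was with FLA, 222.0 and 175.8 CPM, or 1.53 (SE 0.35). TDB, SeV, CpG and MDP/LPS lay between, at 1.56 to 2.19.

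The 2 ligands without a call for Tlr2 in WT were MDP and HT-DNA. With MDP it read 188.9 and 213.0 CPM, a change of 1.50 (SE 0.35) with an adjusted p of 0.106. That change was close in size to the called one with FLA, and both plates lay above both time 0 values. With HT-DNA it read 96.9 and 89.4 CPM, a change of 0.36.

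In KO Tlr2 rose with 8 ligands in late wells. Poly(I:C) took it from 42.4 and 35.3 CPM to 473.2 and 287.4 CPM, a log2 change of 3.44 (SE 0.38, adjusted p = 3.93e-13). SeV gave 263.6 and 220.3 CPM (2.91, SE 0.37), Zymosan 314.3 and 182.1 CPM (2.86, SE 0.37), TDB 264.1 and 231.9 CPM (2.69, SE 0.37) and MDP 222.6 and 245.9 CPM (2.62, SE 0.37). LPS gave 166.9 and 126.9 CPM (2.15, SE 0.37), MDP/LPS 170.9 and 123.2 CPM (2.16, SE 0.37) and HT-DNA 143.7 and 86.0 CPM (1.67, SE 0.38, adjusted p = 0.0359). These changes start from a lower time 0 level than in WT, so a larger log2 change in KO does not mean a higher level. With Poly(I:C) the late levels of the genotypes overlapped.

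Tlr2 was not called in KO with Pam3Cys, FLA, R848 and CpG, the 4 ligands with 0 NF-kB genes raised there. Pam3Cys gave 67.7 and 55.2 CPM, a change of 0.63, and CpG gave 66.5 and 36.4 CPM, a change of 0.42. FLA gave 37.5 and 49.3 CPM, a change of 0.24. R848 gave 39.8 CPM in replicate 1 and 12.7 CPM in replicate 2, a change of -0.31, where the second value was 4 counts from the shallow wells. In WT each of these ligands raised Tlr2 to at least 175.8 CPM in both plates.

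The difference between genotypes was tested for each ligand, and 1 of 96 late tests was called, Tlr2 with R848, against 0.129% of all tests called lower in KO. KO lay below WT by a log2 value of -2.63 (SE 0.54, adjusted p = 0.00294). Without wells under 150000 counts it was -2.31 (SE 0.60, adjusted p = 0.0477), and without KO replicate 2 it was -2.44 (SE 0.49). The differences with Pam3Cys, CpG and FLA were -1.59, -1.53 and -1.28, with adjusted p-values of 0.182, 0.221 and 0.92, so of these 4 ligands R848 alone had a called difference. Without WT replicate 1 or WT replicate 2 the R848 difference kept its sign, at -2.44 and -2.91, but its adjusted p was 0.929 and 0.277. Early and middle wells gave 0 of 96 calls each (1 and 5 with an unadjusted p under 0.05, DESeq2 0 in both), against 0.0237% and 0.0442% of all tests.

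In middle wells Tlr2 was called with 8 ligands in WT, by log2 changes of 1.67 (Zymosan) to 2.71 (Poly(I:C)), and with 7 in KO, by 1.47 (SeV) to 3.56 (Poly(I:C)). SeV, TDB and MDP were among the 7 in KO and not among the 8 in WT, but no middle difference between genotypes was called. In late wells TDB raised 1 of 20 NF-kB genes in WT and 5 in KO, against 0.142% and 0.473% of all genes, and MDP raised 1 and 4, against 0.0284% and 0.189%. Tlr2 was called there with TDB in both genotypes and with MDP in KO.

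The 2 early calls of Tlr2 were with Poly(I:C) and Zymosan in KO. With Poly(I:C) in WT wells Tlr2 read 95.1 and 93.1 CPM at 0.5 h, 268.3 and 291.6 CPM at 1 h and 571.4 and 504.9 CPM at 2 h, and then 380.7 and 393.7 CPM at 3 h. In KO wells it read 87.2 and 100.1 CPM at 0.5 h, 221.8 and 231.9 CPM at 1 h and 528.0 and 514.0 CPM at 2 h. The genotypes overlapped at 0.5 and 2 h. The early sums gave a log2 change of 1.92 (SE 0.36, adjusted p = 0.000255) in KO, and Zymosan gave 1.69 (SE 0.38). With R848 in WT, Tlr2 was still at 93.2 and 85.7 CPM at 1 h and reached 326.2 and 316.2 CPM at 2 h. With MDP it read 151.0 and 160.8 CPM at 2 h and 243.3 and 260.4 CPM at 3 h in WT. In KO with R848 every well was at or below 50.5 CPM except 1 of replicate 2 at 1.5 h, at 182.4 CPM from 20 counts.

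**Figure D4:**
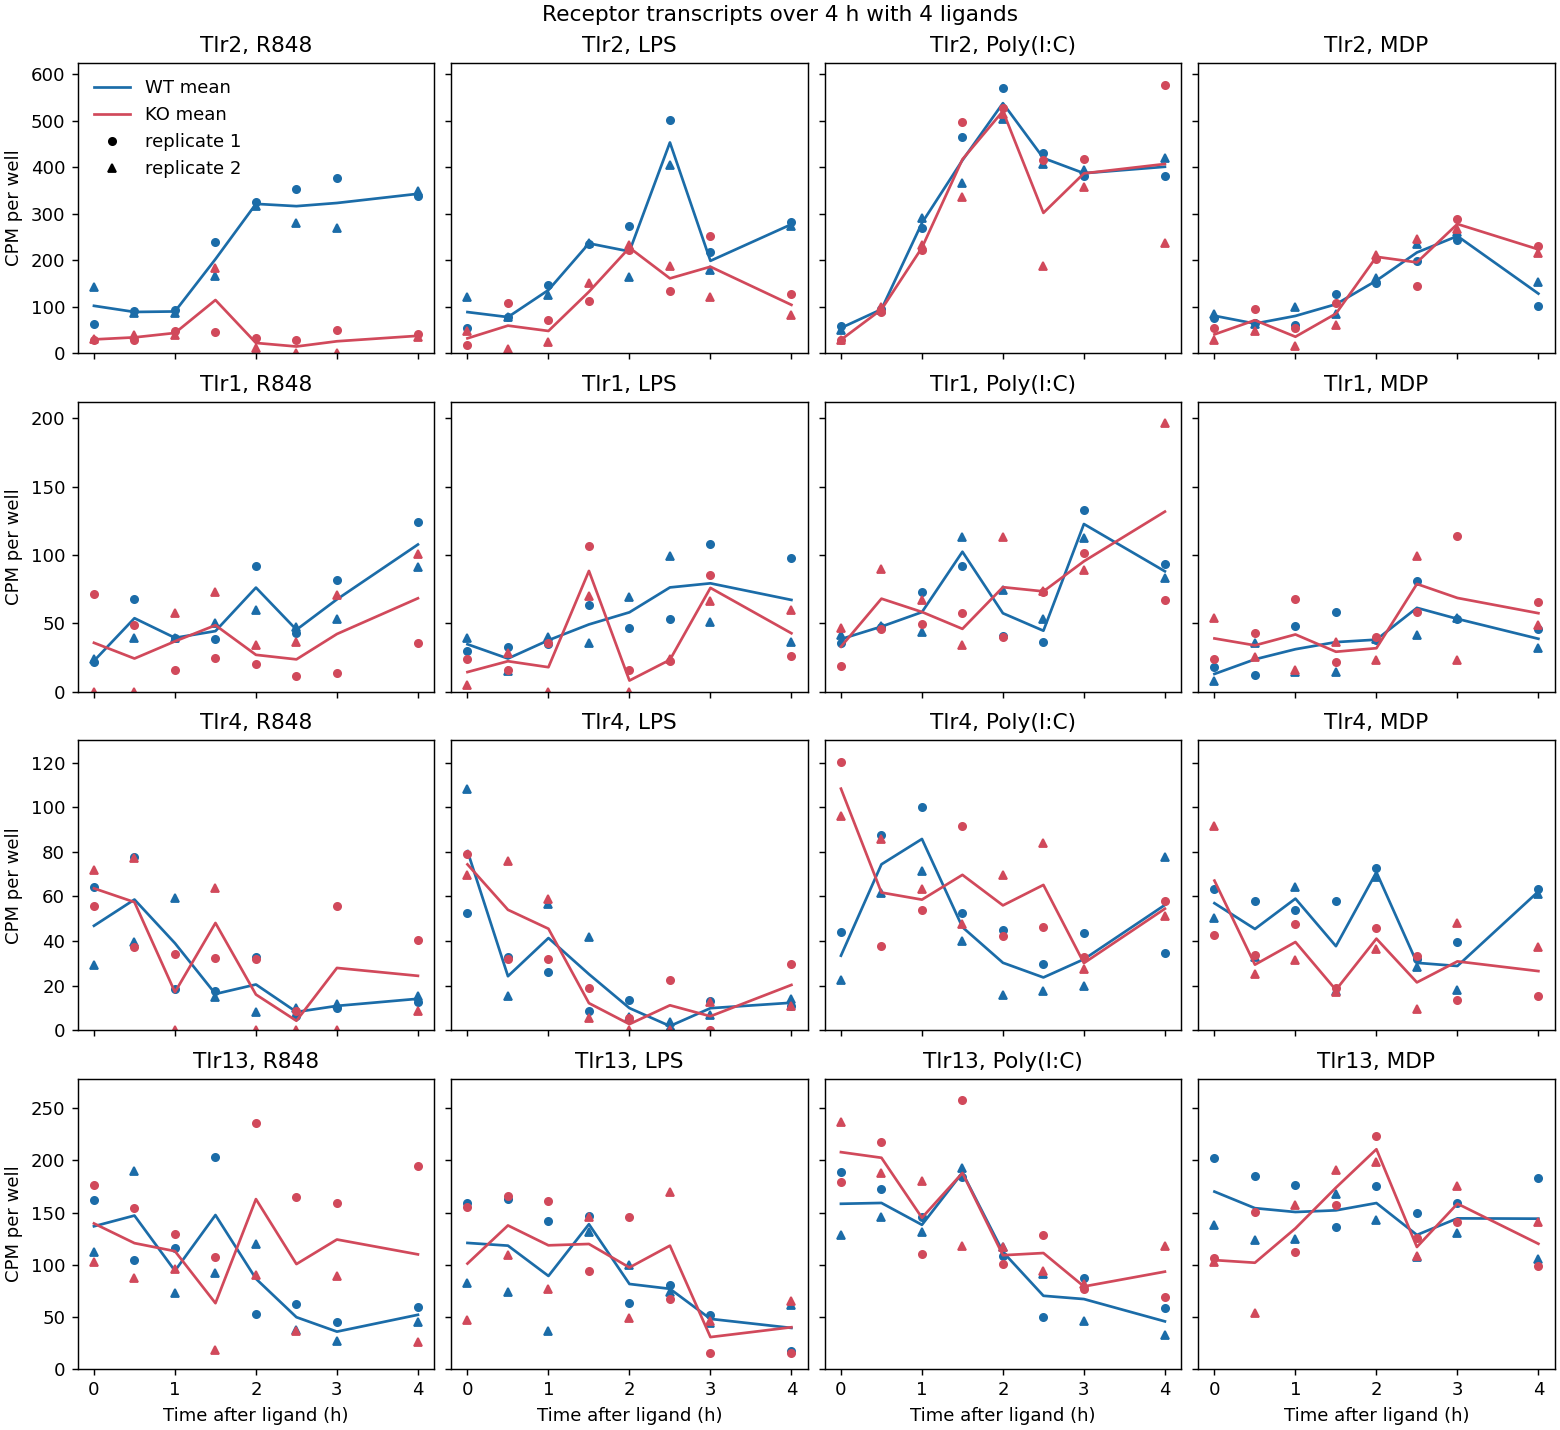
Rows are Tlr2, Tlr1, Tlr4 and Tlr13 and columns 4 ligands, with the level in CPM per well on the y axis and time in hours on the x axis. Lines join the means of 2 wells, WT in blue and KO in red. With R848, Tlr2 in WT reaches 326.2 and 316.2 CPM at 2 h while KO wells lie at 31.9 and 11.3 CPM.

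Tlr1, the partner of Tlr2, rose with 5 ligands in WT and 1 in KO. In late WT wells Tlr1 went from 28.4 and 30.6 CPM to 102.7 and 118.2 CPM with FLA, a log2 change of 1.99 (SE 0.52, adjusted p = 0.033). CpG gave 102.9 and 101.5 CPM (1.98, SE 0.52), Poly(I:C) 98.1 and 86.8 CPM (1.84, SE 0.51), LPS 92.0 and 59.3 CPM (1.69, SE 0.52) and MDP/LPS 89.5 and 55.2 CPM (1.62, SE 0.52). Tlr1 with its own ligand Pam3Cys read 73.7 and 84.8 CPM, a change of 1.52 with an adjusted p of 0.098. The called sums held 55 to 144 counts. In KO, Poly(I:C) gave 82.6 and 108.6 CPM, a change of 1.84 (SE 0.51, adjusted p = 0.00939), as large as in WT. With CpG and FLA the KO levels were 42.3 and 12.2 CPM and 22.5 and 26.8 CPM, and the differences between genotypes, -2.07 and -2.17, had adjusted p-values of 0.306 and 0.583. Tlr6, the other partner of Tlr2, had 0 to 18 counts in late sums and was not called in any comparison.

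Tlr4 fell with LPS and R848 in WT and with LPS and MDP/LPS in KO. In late WT wells its log2 changes with the 12 ligands were -2.36 to -0.10. Of the 12, 2 were called, where 0.686% of all late WT tests were called lower. Both late plates of Tlr4 lay below both time 0 values with all 12 ligands in WT and with 10 in KO. These comparisons share the time 0 wells of a genotype, and the share of all genes that lay so was not computed. With LPS, its own ligand, Tlr4 in WT went from 58.2 and 58.1 CPM to 9.2 and 8.63 CPM, a log2 change of -2.36 (SE 0.66, adjusted p = 0.0113). With R848 it went to 9.99 and 13.0 CPM, a change of -2.18 (SE 0.63, adjusted p = 0.0319). With MDP/LPS it read 14.9 and 21.9 CPM, a change of -1.31 with an adjusted p of 0.266. The called sums held 8 to 15 counts each.

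In KO, Tlr4 was called with LPS and MDP/LPS in middle wells. LPS gave 11.6 and 2.87 CPM, a change of -3.02 (SE 0.82, adjusted p = 0.0208), and MDP/LPS gave 7.26 and 4.65 CPM, a change of -3.31 (SE 0.81, adjusted p = 0.00624). These sums hold 1 to 4 counts, so the fitted size is imprecise. In late KO wells the changes were -2.03 with LPS and -2.01 with MDP/LPS, with adjusted p-values of 0.0589 and 0.0555. With CpG and FLA in KO, Tlr4 read 61.3 and 47.7 CPM and 47.5 and 54.7 CPM, and the differences from WT, 1.18 and 0.49, were not called.

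Tlr13, the highest receptor at rest, fell with 3 ligands in WT and 2 in KO. In late WT wells Tlr13 fell with R848 from 159.8 and 120.9 CPM to 54.9 and 37.4 CPM, a log2 change of -1.46 (SE 0.36, adjusted p = 0.0051). It fell with MDP/LPS to 42.3 and 47.9 CPM (-1.29, SE 0.36, adjusted p = 0.00983) and with LPS to 44.3 and 59.3 CPM (-1.11, SE 0.36, adjusted p = 0.038). CpG, Poly(I:C) and Pam3Cys gave changes of -1.15, -1.01 and -0.999 with adjusted p-values of 0.0678, 0.0722 and 0.119. With TDB, MDP and HT-DNA the changes were 0.05, 0.01 and -0.17. None of the 12 ligands was set beside Tlr13.

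In KO, Tlr13 fell with LPS to 29.4 and 86.3 CPM (-1.26, SE 0.37, adjusted p = 0.0237) and with Zymosan to 76.3 and 47.6 CPM (-1.19, SE 0.35, adjusted p = 0.0265). The plates with LPS lay far apart. With R848 in KO it read 173.9 and 50.8 CPM, the lower value from the shallow wells, and the difference from WT was 1.07 with an adjusted p of 0.679. Without the shallow wells that difference was 1.56 (adjusted p = 0.2), and without KO replicate 1, which leaves only the shallow wells, it was -0.07. With Pam3Cys and CpG the KO levels were 152.8 and 127.1 CPM and 143.3 and 106.5 CPM, and these differences were not called either. Over all 12 ligands the late log2 changes of Tlr13 in KO ran from -1.26 to -0.23, with a median of -0.37. In WT they ran from -1.46 to 0.05, with a median of -0.84. The 12 changes of a genotype share its time 0 wells.

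**Figure D5:**
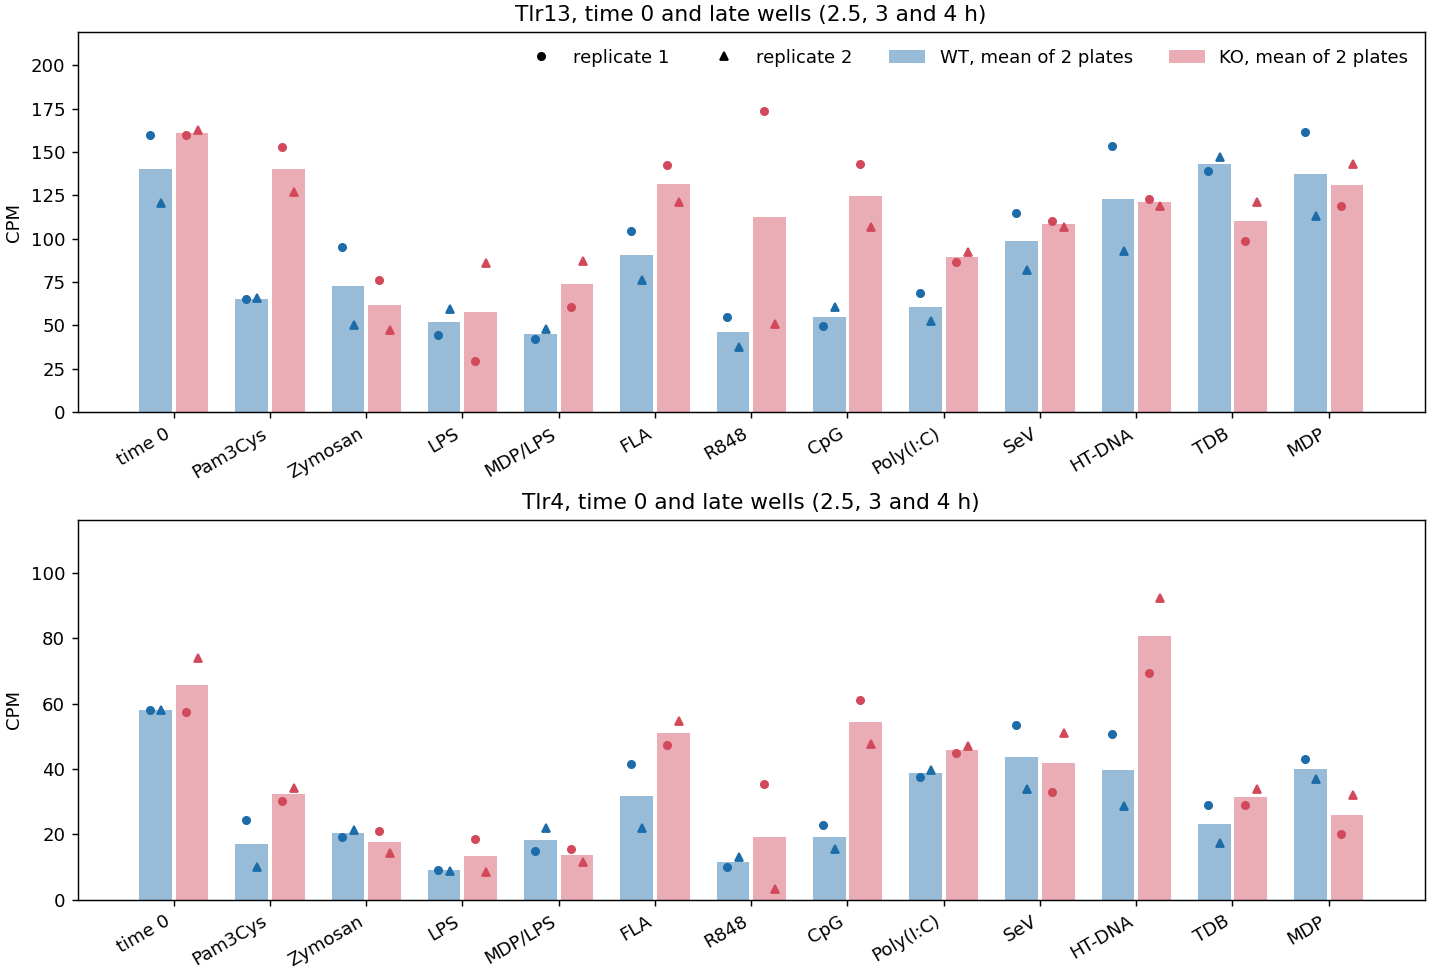
Bars give the mean level in CPM of Tlr13 (top) and Tlr4 (bottom) at time 0 and in late wells with each ligand, WT in blue and KO in red, with circles for replicate 1 and triangles for replicate 2. In WT, Tlr4 lies at 9.2 and 8.63 CPM with LPS and Tlr13 at 54.9 and 37.4 CPM with R848.

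The other endosomal receptors were called in no single comparison with a ligand. Tlr3 with its ligand Poly(I:C) read 34.1 and 28.3 CPM in late WT wells and 50.1 and 42.8 CPM in KO, against 5.31 to 8.21 CPM at time 0 over the 4 plates. The log2 changes were 2.38 (SE 0.99, adjusted p = 0.192) in WT and 2.92 (SE 1.00, adjusted p = 0.0509) in KO. All 4 late plates were above all 4 time 0 plates, but the time 0 level rests on 25 to 33 counts a plate. By single wells, Tlr3 read 21.1 and 36.4 CPM at 3 h and 65.8 and 32.5 CPM at 4 h in WT. In KO it read 77.6 and 94.4 CPM at 4 h. Other ligands gave higher levels too, uncalled: in WT both late plates lay above both time 0 plates with 8 of 12 ligands, and the late log2 changes over the 12 ran from -0.85 to 2.38 with a median of 1.04. In KO this held with 7 of 12, and the changes ran from -2.18 to 2.92 with a median of 0.72. Both late plates lay below both time 0 plates with 1 ligand in WT and 2 in KO. These comparisons share the time 0 wells of a genotype, and the share of all genes that lay so was not computed. With MDP/LPS in WT Tlr3 read 26.5 and 23.5 CPM and with SeV 29.6 and 11.7 CPM. With FLA in WT it read 2.77 and 4.19 CPM, below both WT time 0 plates.

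Tlr7 also read highest with Poly(I:C), not with its own ligand. Late WT wells held 120.6 and 99.0 CPM of Tlr7 with Poly(I:C), a change of 0.85 with an adjusted p of 0.319, and KO wells 117.2 CPM in each plate, a change of 0.72. With R848 it read 69.1 and 37.4 CPM in WT, a change of -0.25, and 89.1 and 38.1 CPM in KO. Tlr8 ranged from 9.93 to 45.9 CPM over the 24 late sums of WT and from 0 to 46.2 CPM over those of KO, with no call. Tlr5 had no count in 14 of 24 late WT sums and 15 of 24 late KO sums, and Tlr9 in 14 and 20. With CpG, late Tlr9 counts were 1 and 0 in WT and 0 and 0 in KO, and with FLA, late Tlr5 counts were 0 in all 4 plates. In the fit without the filter on low counts neither had an adjusted p under 0.05.

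No receptor was called more changed by its own ligand than by the others. In late WT wells each receptor's change with its ligand was set against the mean of the ligands that are not its own, and 0 of 8 tested pairs were called (2 with an unadjusted p under 0.05, DESeq2 0), where 2.01% of all gene tests over the 10 pairs were called. Tlr3 with Poly(I:C) was above the others by a log2 difference of 1.50 (SE 0.62, adjusted p = 0.183). Tlr4 with LPS differed from them by -1.35 (SE 0.56, adjusted p = 0.243), and with MDP/LPS by -0.29 (SE 0.48). For Tlr2 the values were 0.39 (SE 0.25) for Pam3Cys and 0.21 (SE 0.25) for Zymosan, for Tlr1 0.35 (SE 0.36) for Pam3Cys, and for Tlr7 -0.06 (SE 0.32) for R848. Tlr6 with Zymosan, at 3 and 0 counts in the late WT plates, differed by -1.27 (SE 1.41).

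The genes whose level followed a receptor most closely were found by Pearson r over the 74 group means of log2 CPM, as a description. For Tlr2 they were Relb (0.89), an NF-kB subunit, Nfkbie (0.88), an NF-kB inhibitor, and Clec4e (0.88), a receptor for fungal and mycobacterial glycolipids. For Tlr1 they were Abracl (0.75), Prkcd (0.74) and Bcl2a1b (0.73). For Tlr4 they were Oxr1 (0.69), Lrrc33 (0.62) and Lmo2 (0.60), and for Tlr13 they were 5430435G22Rik, Cd28 and Nceh1 (0.77 to 0.78). For Tlr7 they were Ifitm3 (0.63), B2m (0.60) and Clec12a (0.57). Among the receptors, Tlr1 and Tlr2 had an r of 0.61, Tlr4 and Tlr13 0.42, and Tlr1 and Tlr13 -0.62. The groups share plates and the time 0 wells, so these values carry no test.

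Accessory genes encode proteins that help the receptors bind ligands or signal. The list used here also held Tlr11 and Tlr12, which are themselves Toll-like receptor genes. Of 21 accessory genes listed, 16 were tested, and in late LPS wells 2 of 16 rose and 0 fell in each genotype, against 4.55% of all genes rising in WT and 3.26% in KO, with medians of -0.35 in WT and -0.10 in KO beside -0.13 and -0.12 over all genes tested. The 2 were Cd14, which hands LPS to Tlr4, and Slc15a3, an endosomal transporter of bacterial peptides. Cd14 rose by 1.75 (SE 0.24) in WT and 1.61 (SE 0.24) in KO with LPS, a difference of -0.13 with an adjusted p of 1.00. With R848 Cd14 rose by 1.42 (SE 0.24) in WT and read -0.06 (SE 0.25) in KO, a difference of -1.48 (SE 0.34, adjusted p = 0.0129), or -1.40 (adjusted p = 0.0249) without the shallow wells. Of 15 adaptor and kinase genes, 14 were tested, and with LPS 1 of 14 rose in WT and 0 in KO, against the same shares. Myd88 rose in WT with Poly(I:C), from 30.4 and 35.0 CPM to 108.3 and 118.9 CPM, a log2 change of 1.99 (SE 0.64, adjusted p = 0.0451).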

How the data were processed

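RNA of 384 wells was profiled as 3′ digital gene expression with a modified SCRB-Seq protocol, per the labels' protocols. The authors deposited raw counts of 23481 genes per well, and BWA and mm10 are named without versions in the submitters' processing notes. How reads were counted, on which strand and with which removal of duplicates was not given.

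Wells were summed per plate into time 0 (12 wells), early, middle and late classes, giving 148 sums in 74 groups of 2 plates. Sums held 198344 to 4901235 counts, which limits the precision of the lower receptors. Rn45s took 7.52% to 9.37% of a plate's counts. The sums were tested with edgeR 4.0.16 (quasi-likelihood, robust, TMM scaling, filterByExpr with a minimum count of 10) in R 4.3.3, over 10562 genes. Each comparison was adjusted by Benjamini-Hochberg, and a call is an adjusted p under 0.05. All tests were two-sided. Tlr5 and Tlr9 did not pass the filter. On simulated counts for the late WT LPS comparison over 10562 genes, 78% of 50 genes raised 4-fold, 18% of 50 raised 2-fold and 68% of 50 lowered 4-fold were called. In the simulated genotype difference for late LPS, 24% and 10% of those raised and lowered 4-fold were called. The changed genes all had a higher mean level than Tlr8 (17.6 CPM over all wells), Tlr3 (11.0 CPM) and Tlr6 (3.98 CPM). The simulated shares therefore do not cover these receptors. In the simulation 10362 genes were left unchanged, and counts were drawn from trended dispersions without gene-wise spread or a plate effect. The real late WT LPS comparison called 665 genes, so its adjustment differed and the simulated shares need not hold there.

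The replicate number is the plate within a genotype, per the labels, and 1 sum per plate entered each group. The deviations of replicate 1 sums correlated by a median of 0.0142 between WT groups and 0.0198 between KO groups over 666 pairs each.

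Alternatives were DESeq2 1.42.0, its size factors, no filter, the plate as a replicate block, single wells, no wells under 150000 counts, 5% plate-wide background subtracted, no Rn45s, the time 0 well of the same ligand label, and each plate left out. Named genes were the 10 receptors, members of fixed lists and the 3 genes of highest Pearson r with each receptor above 20 CPM. The receptors and lists were chosen with earlier results of these data known.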

Additional observations from a re-analysis of the deposited data

Results flagged for a closer look

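The late change of Tlr2 with R848 differed between genotypes, and edgeR's test of that difference gave a log2 value of -2.63 (SE 0.54, adjusted p = 0.00294). Tlr2 read 354.6 and 307.8 CPM in WT and 39.8 and 12.7 CPM in KO. The KO replicate 2 wells with R848 were all under 150000 counts. The part of plate differences in this result cannot be told apart from that of genotype.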

How the results depend on the processing

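Of the 51 calls, 0 changed sign under any alternative and 13 stayed called under each. DESeq2, its size factors, the replicate block, the fit without Rn45s and the fit of single wells kept all 51. The replicate block (plate within genotype) called 23 late WT tests, and it changed no other count of calls. DESeq2's size factors moved the median log2 change of all genes by up to 0.14, and no named value turned. The test over all times and ligands at once called 4 receptor genes in WT and 5 in KO in the main fit. It called 6 and 7 with DESeq2, with no filter and with single wells, and 3 and 5 with the background subtracted.

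Single wells called more: 1 receptor at time 0, 1 early and 35 late tests in WT, 23 late tests in KO, 1 middle difference and 6 late differences between genotypes. With the time 0 well of the same ligand label alone, 12 late WT tests were called. With 1 plate left out, calls ranged from 0 to 1 for early WT, 1 to 3 for early KO, 0 to 11 for middle WT, 5 to 9 for middle KO, 1 to 28 for late WT, 7 to 12 for late KO, 0 to 2 for middle differences, 0 to 3 for late differences, 1 to 6 for genes of any change in WT, 2 to 7 in KO and 0 to 1 for a receptor's own ligand. The cause was not tested.

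Uncalled values that changed sign with 1 plate left out are given as their lowest and highest value over the 4 plates. They were Tlr7 with R848 in WT (-0.63 to 0.0065) and, at time 0, Tlr1 (-0.12 to 0.057, and 0.0034 without KO replicate 1), Tlr3 (-0.35 to 0.33, and 0.025 without KO replicate 2) and Tlr4 (-0.058 to 0.30). Among late differences between genotypes they were Tlr6 with Zymosan (-3.19 to 6.54), Tlr4 with LPS (-0.50 to 0.93), Tlr13 with R848 (-0.072 to 1.56) and Tlr7 with R848 (-0.52 to 0.41, and -0.22 without WT replicate 2). The cause was not tested.

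Counts of Tlr3, Tlr6, Tlr8 and stimulated Tlr4 were low. In simulated counts 18% of genes raised 2-fold were called in late WT wells with LPS. Those genes had higher mean levels than Tlr3, Tlr6 and Tlr8, so this share does not cover these receptors. Tlr5 and Tlr9 could not be followed.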
